A study of Mus musculus with 29 samples.

Results

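Ptgir, Impg2, Gltp, Micall1, Helz2, Xaf1 and Bst2 are 7 mouse genes that the study listed as predicted targets of the microRNA miR-99b-5p among the genes upregulated in the prefrontal cortex (PFC) after inhibition of that microRNA. They were chosen by symbol and matched to 7 of the 48709 Ensembl identifiers of the deposited count tables. Because the PFC comparison chose them, every PFC value given here is a description without a test. The comparisons in primary microglia and in co-cultures did not choose them and were tested.

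RNA-seq was available for 29 libraries from 3 experiments. In the PFC experiment, male C57BL/6J mice aged 3 months received bilateral injections of lipid nanoparticles, and the tissue was taken 5 days later. The particles carried a locked nucleic acid inhibitor of miR-99b-5p in 3 mice (anti-miR-99b) and a scrambled sequence in the 3 others (sc-control). Primary microglia, the resident macrophages of the brain, were grown from CD1 pups at postnatal day 1 and treated for 2 days, 4 libraries with the inhibitor and 4 with the scrambled sequence. For the co-cultures, CD1 microglia were exposed to the inhibitor (7 libraries) or the scrambled sequence (8 libraries) for 48 h and moved onto cortical neurons from CD1 embryos at embryonic day 17.5. RNA was isolated from the mixed culture after another 48 h. All groups, controls included, thus received an oligonucleotide in nanoparticles, and no untreated group was analysed here. Reads assigned to genes ranged from 21324156 to 37901110 per library. Nothing in the labels says that culture libraries of a group came from separate preparations, so their p-values measure the spread between these libraries, which may be technical.

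The summed microglial markers were highest in primary microglia, and the summed neuronal markers were higher in the PFC and the co-cultures than in primary microglia. Summed over a list of 10 microglial marker genes, the level was between 11159 and 11842 CPM (read counts of a gene scaled to the assigned reads of its library) in primary microglia, between 491 and 694 CPM in the PFC and between 109 and 153 CPM in the co-cultures. Summed over 10 neuronal markers, it was between 130 and 145 CPM in primary microglia, between 9346 and 10163 CPM in the PFC and between 8073 and 8390 CPM in the co-cultures. A change in bulk RNA of the PFC or the co-cultures cannot be told apart from a change in the number of cells of a type.

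MicroRNAs are short RNAs that guide Argonaute proteins to messenger RNAs, mainly through pairing of their seed, bases 2 to 8, with sites in the 3′ untranslated region (3′UTR). A bound messenger RNA is usually translated less and degraded sooner, so that an inhibitor of the microRNA can raise its level. Several of the 7 genes are also known from the type I interferon response, in which secreted interferon acts through transcription factors such as Irf9 on promoters that hold the interferon-stimulated response element (ISRE).

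The 7 genes fall into different functions. Ptgir (ENSMUSG00000043017, GRCm38 chr7:16906490-16910905, plus strand) encodes the prostacyclin receptor, a G protein-coupled receptor. Impg2 (ENSMUSG00000035270, chr16:56204313-56273756, plus) encodes a proteoglycan of the matrix around photoreceptors. Gltp (ENSMUSG00000011884, chr5:114669398-114690984, minus) encodes the glycolipid transfer protein, which moves glycolipids between membranes. Micall1 (ENSMUSG00000033039, chr15:79108898-79136900, plus) encodes a scaffold of endocytic recycling tubules. Helz2 (ENSMUSG00000027580, chr2:181227615-181242027, minus) encodes a helicase that acts as a coactivator of the nuclear receptor PPAR and is induced by interferon. Xaf1 (ENSMUSG00000040483, chr11:72301629-72313733, plus) encodes an interferon-induced antagonist of the caspase inhibitor XIAP. Bst2 (ENSMUSG00000046718, chr8:71534255-71537456, minus) encodes tetherin, an interferon-induced membrane protein that holds enveloped viruses at the cell surface.

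MiR-99b-5p shares its seed with miR-99a-5p and miR-100-5p, so that a site matched through the seed alone could pair with each of these 3 microRNAs. Their mature RefSeq sequences (GRCm38.p6) are shown because every site below is read against them, with the seed in capitals. MiR-99b-5p lies at chr17:17830194-17830215, miR-99a-5p at chr16:77598940-77598961 and miR-100-5p at chr9:41531437-41531458, all on the plus strand.
miR-99b-5p: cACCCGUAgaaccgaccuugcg
miR-99a-5p: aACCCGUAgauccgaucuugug
miR-100-5p: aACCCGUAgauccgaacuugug

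The perfect match to this seed is TACGGGT. It occurred in 1.10% of 21037 mouse 3′UTRs (GRCm38, GENCODE M21, the longest per gene, transcript strand only). When followed by an A, as TACGGGTA, it occurred in 0.242%. Of the 7 genes, the 3′UTR of Ptgir alone held the perfect match, and there it was followed by an A. The site lay 42 bases before the end of a 3′UTR of 1791 bases. Since Gltp, Micall1, Helz2, Xaf1, Bst2 and Impg2 lacked it, the search was widened to sites in which G pairs with U in the seed, written TATGGGT and also TGCGGGT and also TGTGGGT. Any of the 4 heptamers, the perfect one included, occurred in 21.5% of all 3′UTRs, and in those of 6 of the 7 genes. Not every annotated protein-coding transcript held one, since it was in 1 of 2 for Impg2, 2 of 3 for Helz2 and 1 of 2 for Xaf1. The prediction itself belonged to the rule that chose the genes, so these counts are a description. The sites are printed as 30 bases of the transcript strand with the heptamer in capitals, because they show how the genes differ in what could pair. They lie at chr7:16910846-16910875 (plus strand) for Ptgir, chr16:56271591-56271620 and chr16:56272932-56272961 (plus strand) for Impg2, chr15:79135829-79135858 (plus strand) for Micall1, chr2:181228536-181228565 (minus strand) for Helz2, chr11:72312587-72312616 (plus strand) for Xaf1 and chr8:71534441-71534470 (minus strand) for Bst2.
Ptgir, perfect: taatttttattTACGGGTattttaccacaa
Impg2, with G:U: gcccagctcacTATGGGTggtactatcctt
Impg2, with G:U: gccaagaaaaaTGTGGGTcagtttcccccc
Micall1, with G:U: gctgtgtgcacTGCGGGTgtctcgtttatg
Helz2, with G:U: agtgacagtctTATGGGTggtggctgcttc
Xaf1, with G:U: gagtccatgttTGCGGGTgctgtgtgtgca
Bst2, with G:U: tttgaagtcacTATGGGTcatagtgactct

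No heptamer of these 4 was found in the 3′UTR of Gltp, which says only that these letters are not in that window. Taken singly, TATGGGT occurred in 6.29% of all 3′UTRs, TGCGGGT in 1.57% and TGTGGGT in 15.4%. Bst2 has a 3′UTR of 244 bases, much shorter than the median of 960 bases over all genes, and Micall1 has the longest among the 7 genes with 3779 bases.

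The promoters were read for a match to the interferon element, since Helz2, Xaf1 and Bst2 are known as interferon-induced. In RefSeq promoter windows from 250 bases before to 50 bases after the start of transcription (GRCm38.p6), the ISRE core, taken as GAAA, any 2 bases and GAAA again on either strand, occurred in 3.44% of 32851 windows. Each of the 7 genes had 1 window, and the core occurred in that of Bst2 alone, as a pair of overlapping matches starting 130 and 124 bases before the start. The nearer one is shown because Bst2 is later compared with interferon-stimulated genes. It lies at chr8:71537577-71537606 on the minus strand, with the core in capitals.
Bst2 promoter: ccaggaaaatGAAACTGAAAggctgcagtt

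For comparison, 15 of the 30 genes of a list of interferon-stimulated genes that have such a window held the core. These matches are letters in a window and say nothing about binding.

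The control levels place the 7 genes in the 3 kinds of sample. Here the sc-control libraries of all experiments were scaled together, and levels of different genes were compared as CPM per kb of exon. In primary microglia, Gltp was highest at 180 ± 4.08 CPM per kb (SD, n = 4), followed by Bst2 at 128 ± 9.61 and Helz2 at 10.7 ± 0.907. Xaf1, at 4.36 ± 0.584 CPM per kb, and Micall1, at 4.00 ± 0.161, came next, and their libraries overlapped. Ptgir reached 1.12 ± 0.0670 CPM per kb and Impg2 0.163 ± 0.0295.
In the PFC, the order of levels per kb was Gltp (24.7 ± 2.37, SD, n = 3), Bst2 (12.4 ± 3.28), Micall1 (5.95 ± 0.229), Xaf1 (1.75 ± 0.333), Helz2 (1.05 ± 0.193), Impg2 (0.113 ± 0.0450) and Ptgir (0.0371 ± 0.0329), with no overlap between neighbours. In the co-cultures, Gltp (11.2 ± 0.878 CPM per kb, SD, n = 8) and Bst2 (10.7 ± 1.91) overlapped at the top. Micall1 (4.44 ± 0.169), Xaf1 (0.522 ± 0.107), Helz2 (0.255 ± 0.0363), Impg2 (0.177 ± 0.0216) and Ptgir (0.0426 ± 0.0203) followed without overlap. Ptgir was thus the lowest of the 7 in the PFC and the co-cultures, and Impg2 in primary microglia.

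**Figure D1:**
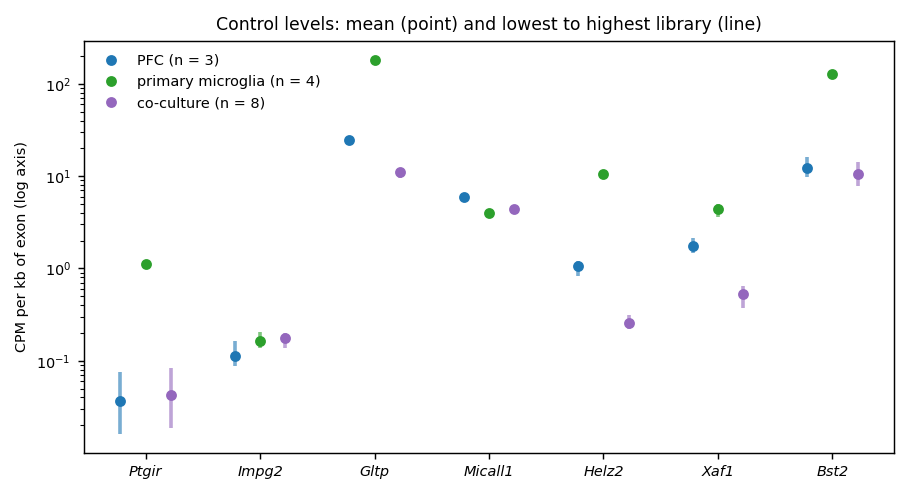
Levels of the 7 genes in the sc-control libraries of the 3 experiments, in CPM per kb of exon on a log axis, with the mean as a point and a line from the lowest to the highest library. Ptgir, Gltp, Helz2, Xaf1 and Bst2 lie higher in primary microglia than in the other samples, while Impg2 and Micall1 lie close together in all 3.

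Gltp, Helz2, Xaf1 and Bst2 had higher control levels in primary microglia than in the PFC (adjusted p under 0.05 in edgeR's quasi-likelihood test and a log2 difference beyond 1). The difference was 10.3-fold for Bst2, 10.0-fold for Helz2, 7.29-fold for Gltp and 2.46-fold for Xaf1, with the highest adjusted p, 1.93e-10, for Xaf1. Beside them, 63.4% of 18274 genes were called in either direction, and the median log2 difference over all genes was -0.15. The same genes were higher in primary microglia than in the co-cultures, Helz2 by 41.9-fold, Gltp by 16.0-fold, Bst2 by 12.0-fold and Xaf1 by 8.27-fold. Their edgeR adjusted p was at most 2.82e-19, with 59.5% of all genes called in either direction and a median of -0.17. Ptgir stood 28.8-fold higher in primary microglia than in the PFC and 25.4-fold higher than in the co-cultures. It passed the joint filter only through its counts in primary microglia, so these differences are a description and are not counted as calls. Micall1 and Impg2 missed the limit of 1 on the log2 scale in both comparisons, with Micall1 1.48-fold higher in the PFC than in primary microglia (edgeR adjusted p = 1.47e-11). Between co-cultures and PFC, 3 of the genes other than Ptgir were called beside 35.4% of all genes. Gltp was 2.2-fold, Xaf1 3.36-fold and Helz2 4.17-fold lower in the co-cultures, with edgeR adjusted p of at most 4.76e-12. Without sc-control replicate 4 of the PFC, the only PFC control with more than 2 reads of Ptgir, the difference of Ptgir between primary microglia and PFC was 58.5-fold, and Impg2 was also called, 2.02-fold higher in the co-cultures than in the PFC. Strain, age, culture and experiment differ together between the PFC and either culture, as do cell composition, culture and experiment between the cultures, and cannot be told apart.

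The summed microglial markers were lower in the other samples than in primary microglia, as were the levels of some of the 7 genes. The summed microglial markers in control co-cultures stood at 0.917% of their level in primary microglia. By the same measure Helz2 stood at 2.40%, Ptgir at 3.79%, Gltp at 6.23%, Bst2 at 8.34% and Xaf1 at 12.0%. Impg2 stood at 109% and Micall1 at 111%. In the PFC the markers stood at 4.13% of the primary microglia, Ptgir at 3.30%, Bst2 at 9.66%, Helz2 at 9.86%, Gltp at 13.7% and Xaf1 at 40.2%. Impg2 stood at 69.2% there and Micall1 at 149%, so Impg2 and Micall1 did not follow the markers. The part of the markers in the levels of the 7 genes was not tested.

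In the PFC, the contrast that chose the genes, the 3 anti-miR-99b libraries lay above the 3 sc-control libraries for 7 of 7 genes. Over all genes tested, 7.52% of 17364 were separated in this direction, and since the contrast belonged to the rule nothing is read from the count. Ptgir was counted with 18, 28 and 18 reads after anti-miR-99b and with 2, 2 and 9 reads in sc-control, or 0.735, 1.00 and 0.592 CPM against 0.0559, 0.0705 and 0.262 CPM. This was the largest log2 fold change (log2FC) of the 7 in this contrast, 2.52 (SE 0.48), from the lowest counts. Impg2 stood at 3.06, 3.00 and 2.60 CPM against 0.838, 0.846 and 1.60 CPM (log2FC 1.38, SE 0.25). For both genes 1 control library was well above the other two, and it was sc-control replicate 4.

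Bst2 followed with 19.0, 20.2 and 18.3 CPM after anti-miR-99b against 10.5, 9.37 and 15.2 CPM (log2FC 0.71, SE 0.16). Xaf1 stood at 10.9, 13.2 and 14.5 CPM against 8.07, 7.29 and 10.5 CPM (log2FC 0.58, SE 0.15). Helz2 stood at 14.8, 17.6 and 19.5 CPM against 13.5, 10.0 and 14.4 CPM (log2FC 0.45, SE 0.15), so that the lowest treated library of Helz2 lay just above the highest control. The smallest differences on the log2 scale, beside that of Helz2, were those of Micall1 and Gltp, the members with the highest counts. Micall1 stood at 77.2, 67.2 and 67.0 CPM against 50.0, 54.2 and 51.5 CPM (log2FC 0.44, SE 0.08). Gltp stood at 56.6, 57.3 and 53.9 CPM against 41.8, 44.3 and 50.5 CPM (log2FC 0.30, SE 0.08).

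Sequencing lane moved with the PFC values. The difference between group means of log2(CPM + 0.5) was larger in lane 6, with 2 libraries per group, than in lane 7, with 1 per group, for 7 of 7 genes and for 8928 of all 17364 genes. It fell from 1.27 in lane 6 to 0.52 in lane 7 for Ptgir, from 1.397 to 0.56 for Impg2, from 0.95 to 0.25 for Bst2 and from 0.40 to 0.09 for Gltp. It was nearly equal for Helz2 (0.45 and 0.42) and Micall1 (0.46 and 0.38), and it was 0.61 and 0.46 for Xaf1. The lane 7 control, replicate 4, was the highest of the 3 controls for 6 of the 7 genes. The summed microglial markers were between 640 and 694 CPM after anti-miR-99b and between 491 and 651 CPM in sc-control, and their part in these values was not tested. Interferon-stimulated genes, described further for microglia, gave a log2FC above 0 for 40 of 40 listed genes in this contrast, as did 50.6% of all genes, and the values of the 7 genes lay among theirs, from 0.14 to 1.45, except that of Ptgir. The interferon list was chosen with earlier results of these data known, so its counts are a description.

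**Figure D2:**
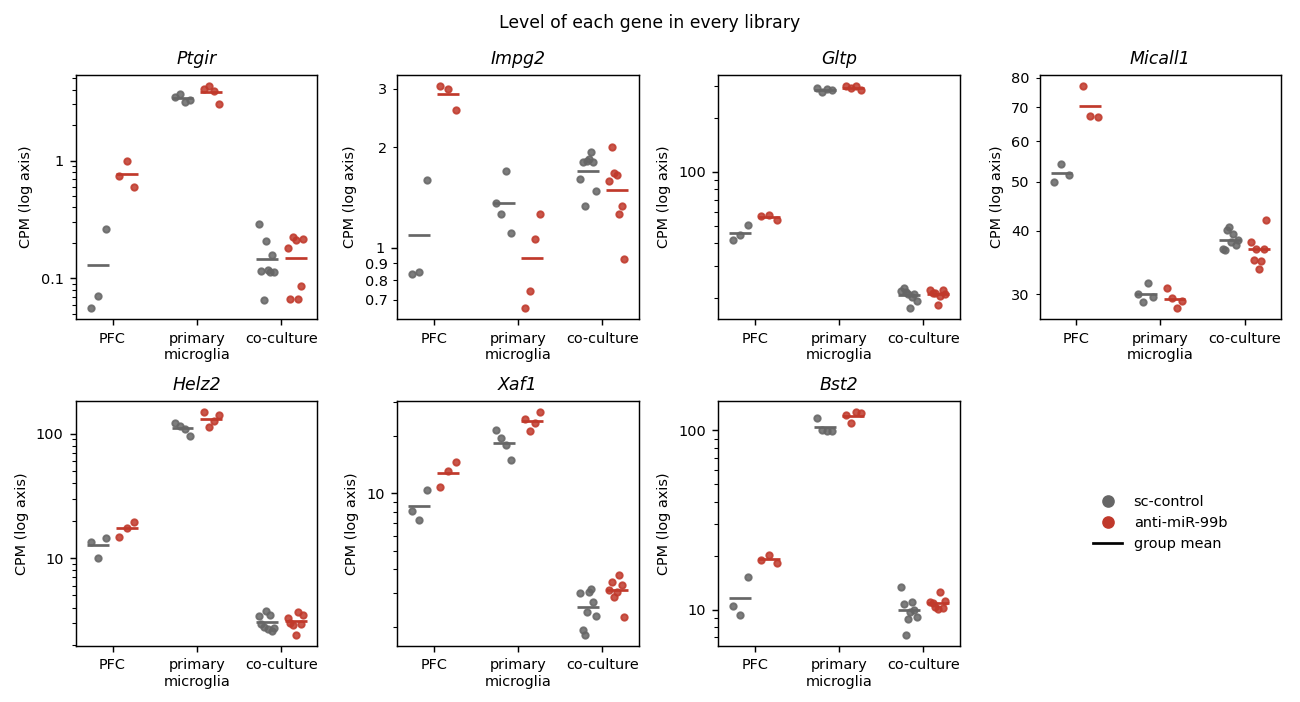
Level of each of the 7 genes in all 29 libraries, in CPM on a log axis, grouped by experiment and treatment, with each group mean as a line. In the PFC, which chose the genes, the groups are apart for all 7, and in primary microglia and co-cultures the groups overlap for all 7.

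In primary microglia, 2 of the 7 genes were upregulated after anti-miR-99b, Xaf1 and Bst2, both known as interferon-induced. Calls required an adjusted p under 0.1 over 14953 genes in edgeR's quasi-likelihood test and a log2FC beyond 0.1, which 0.435% of all genes met in the upward direction and 0.488% in either direction. Helz2, Ptgir, Gltp, Micall1 and Impg2 did not pass. At an unadjusted p under 0.05 were 4 of 7 (Xaf1, Bst2, Helz2 and Impg2), beside 6.45% of all genes. The groups overlapped for 7 of 7, while they were apart for 3.44% of all genes.

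Xaf1 stood at 24.4, 21.1, 23.4 and 26.7 CPM after anti-miR-99b and at 21.6, 19.4, 17.9 and 15.0 CPM in sc-control. Of the 4 treated libraries, 3 lay above the highest control. The increase was 1.31-fold (log2FC 0.39, SE 0.08, edgeR adjusted p = 0.0303), the largest of the 7 genes in this experiment.

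Bst2 stood at 121, 111, 127 and 124 CPM after anti-miR-99b and at 118, 101, 99.1 and 99.2 CPM in sc-control. Again 3 of the 4 treated libraries exceeded the highest control, which was replicate 2. The increase was 1.16-fold (log2FC 0.22, SE 0.05, edgeR adjusted p = 0.0421). It was counted with 2501 or more reads in every library.

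Helz2, the third gene of the 7 known as interferon-induced, stood at 150, 112, 126 and 142 CPM against 122, 116, 108 and 96.3 CPM. Treated replicate 3 lay within the controls and the other 3 treated libraries above them. The log2FC was 0.26 (SE 0.07) with an unadjusted p of 0.000794 and an edgeR adjusted p of 0.136, so that Helz2 missed the threshold. Its 95% interval ran from 1.09-fold to 1.32-fold.

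Ptgir, with its perfect seed match, stood at 4.09, 4.32, 3.89 and 3.03 CPM after anti-miR-99b and at 3.44, 3.65, 3.13 and 3.28 CPM in sc-control. The treated group held both the highest 3 libraries and the lowest. The log2FC was 0.19 (SE 0.11, edgeR adjusted p = 0.863), with a 95% interval from 0.972-fold to 1.35-fold. This experiment gave Ptgir its best depth, with 73 to 135 reads per library.

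Gltp and Micall1 showed narrow intervals around no change. Gltp, which lacks all 4 heptamers in its 3′UTR, ranged from 284 to 301 CPM after anti-miR-99b and from 278 to 291 CPM in sc-control (log2FC 0.04, SE 0.03, edgeR adjusted p = 0.891, 95% interval 0.987-fold to 1.07-fold). Micall1 ranged from 28.2 to 30.9 CPM and from 28.97 to 31.5 CPM (log2FC -0.03, SE 0.04, edgeR adjusted p = 0.949, 95% interval 0.919-fold to 1.04-fold). The exons of Micall1 share 2229 bases with 1700088E04Rik on the opposite strand, and the strand setting of the counting is not given in the sources used here. The reads of the 2 genes may therefore not be fully separated. 1700088E04Rik itself was low, with a mean of 0.723 CPM in sc-control and 0.759 CPM after anti-miR-99b in primary microglia.

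Impg2 differed in the other direction. It stood at 0.660, 0.742, 1.07 and 1.27 CPM after anti-miR-99b and at 1.37, 1.27, 1.70 and 1.11 CPM in sc-control, from 20 to 50 reads per library. Of the treated libraries, 3 lay below the lowest control. The log2FC was -0.54 (SE 0.21, unadjusted p = 0.0173, edgeR adjusted p = 0.649), and it missed the threshold.

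The calls of Xaf1 and Bst2 rested on several libraries. Both were lost when sc-control replicate 4 or 6, or anti-miR-99b replicate 1, 4 or 5, was left out, and that of Bst2 also without sc-control replicate 3. Over the 8 fits that each left out 1 library, the log2FC of Xaf1 ranged from 0.29 to 0.46 with edgeR adjusted p from 0.00109 to 0.249, and that of Bst2 from 0.19 to 0.28 with edgeR adjusted p from 0.000238 to 0.337. Helz2 passed without sc-control replicate 2 (log2FC 0.31, edgeR adjusted p = 0.0108) or without anti-miR-99b replicate 3 (log2FC 0.33, edgeR adjusted p = 0.00299). With DESeq2's Wald test, Bst2 was called and Xaf1 was not (log2FC 0.38, DESeq2 adjusted p = 0.477).

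The 3 interferon-induced genes differed by lane. In lane 5, with 2 libraries per group, the difference of mean log2(CPM + 0.5) was 0.15 for Xaf1, 0.12 for Helz2 and 0.09 for Bst2. In lane 6, also with 2 per group, it was 0.60, 0.39 and 0.34. With the lane as a block in the same test, the log2FC of Xaf1 was 0.39 (edgeR adjusted p = 0.0249), that of Bst2 0.22 (edgeR adjusted p = 0.0458) and that of Helz2 0.27 (edgeR adjusted p = 0.103). The difference between lanes itself was not tested.

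**Figure D3:**
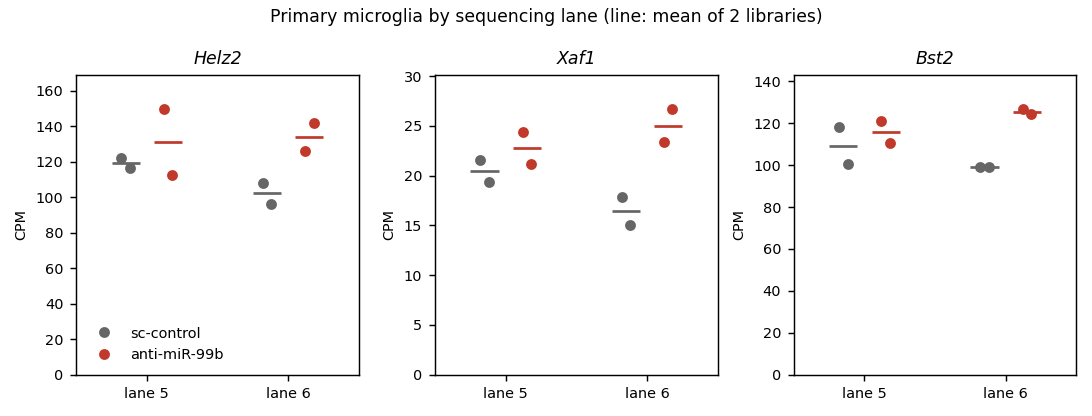
Levels of Helz2, Xaf1 and Bst2 in primary microglia in CPM, by sequencing lane, with 2 libraries of each group per lane and their mean as a line. In lane 6 the treated libraries lie above the controls for all 3 genes, and in lane 5 the groups overlap for all 3.

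Other interferon-stimulated genes moved with these genes in primary microglia. Of a list of 40 such genes that holds none of the 7, 27 were called upward and 0 downward, and 40 of 40 had a log2FC above 0, with a median of 0.39 beside 0.003 over all genes. Above 0 were 51.6% of all genes. Since the list was chosen with earlier results of these data known, these counts are a description. With DESeq2, 6 of the 40 were called. Examples are Ifit3b, an inhibitor of foreign RNA translation (8.98 ± 1.70 against 5.35 ± 0.963 CPM, SD, n = 4 and 4, log2FC 0.77, edgeR adjusted p = 0.0106), Irf7, a transcription factor that amplifies interferon production (53.2 ± 8.84 against 34.4 ± 6.75 CPM, log2FC 0.65, edgeR adjusted p = 0.0106), and Eif2ak2, the kinase PKR (83.7 ± 3.54 against 69.4 ± 5.80 CPM, log2FC 0.27, edgeR adjusted p = 0.0115). The log2FC of Xaf1 was close to the median of this list, and those of Helz2 and Bst2 lay below it. The lane moved with the list as well, since 40 of 40 genes differed more between the groups in lane 6 (median difference 0.59) than in lane 5 (0.15), beside medians of 0.004 and 0.001 over all genes. The number called fell to 0 without sc-control replicate 4, to 3 without sc-control replicate 6, to 4 without anti-miR-99b replicate 1, to 14 without anti-miR-99b replicate 4 and to 1 without anti-miR-99b replicate 5.

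**Figure D4:**
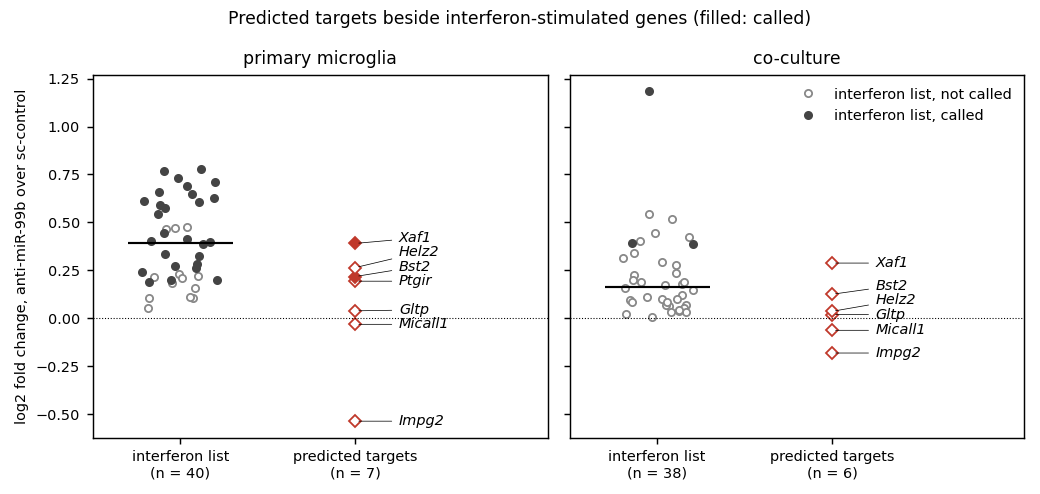
log2 fold change of anti-miR-99b over sc-control for the genes of the interferon list (circles, median as a line) and the predicted targets (diamonds) in primary microglia and co-cultures, with called genes filled. In primary microglia Xaf1 lies on the median of the list and Impg2 below 0, and in the co-cultures no predicted target is filled.

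Of the further predicted targets that belong to the interferon response, 4 were analysed here, and 3 of them were called upward in primary microglia. Zbp1, a sensor of Z-form nucleic acids, rose from 11.4 ± 2.09 to 17.2 ± 2.15 CPM (SD, n = 4 and 4, log2FC 0.61, edgeR adjusted p = 0.0106). Slfn5, a member of the Schlafen family, rose by a log2FC of 0.44 (edgeR adjusted p = 0.0272) and Ifih1, the RNA sensor MDA5, by 0.25 (edgeR adjusted p = 0.0421). Tap1, a peptide transporter for antigen presentation, had a log2FC of 0.21 (edgeR adjusted p = 0.224). DESeq2 called 2 of the 4. With 1 library left out, 0 were called without sc-control replicate 4 or anti-miR-99b replicate 5, and 1 without sc-control replicate 6 or anti-miR-99b replicate 1 or 4, in fits added after the data were seen. None of these 4 had the perfect heptamer in its 3′UTR, and Ifih1, Tap1 and Slfn5 had at least 1 heptamer with G:U pairs. For Zbp1 none was found, which says only that these letters are not in that window. The study itself reported that a miR-99b-5p mimic lowered the activity of a luciferase reporter carrying the Zbp1 3′UTR. It saw no such effect after mutation of the predicted site.

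The pathways of the remaining members gave no calls in primary microglia. By edgeR and by DESeq2, 0 of 12 tested prostanoid enzymes and receptors, 0 of 19 genes of glycolipid synthesis, transfer and breakdown, 0 of 23 endocytic recycling genes and 0 of 15 genes of the XIAP and caspase axis were called. Of a PPAR list that holds receptors, coregulators and the helicase gene Helz, 0 of 13 tested genes were called as well. At an unadjusted p under 0.05 in edgeR were 1 prostanoid gene, 1 glycolipid gene, 3 endocytic recycling genes, 0 of the XIAP and caspase axis and 0 of the PPAR list. Their medians of log2FC were 0.02, 0.03, 0.02, 0.02 and -0.0001. Microglial markers had 0 of 10 called and a median log2FC of 0.02, with summed levels from 11412 to 11842 CPM after anti-miR-99b and from 11159 to 11712 CPM in sc-control.

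In the co-cultures, 0 of the 6 genes tested passed an adjusted p under 0.05 and a log2FC beyond 0.1 in edgeR, thresholds met by 1.4% of 16193 genes in either direction. At an unadjusted p under 0.05 was 1 gene, Xaf1, beside 13.2% of all genes, and DESeq2 likewise called 0 of 6 with 1 gene at an unadjusted p under 0.05. The groups overlapped for all 7, while they were apart for 0.58% of all genes.

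Xaf1 ranged from 2.25 CPM over a median of 3.11 to 3.75 CPM after anti-miR-99b (n = 7), and from 1.83 over 2.55 to 3.16 CPM in sc-control (n = 8). Only 3 of the treated libraries lay above the highest control. The log2FC was 0.29 (SE 0.12) with an unadjusted p of 0.0220 and an edgeR adjusted p of 0.272. By lane, the difference of mean log2(CPM + 0.5) was 0.36 in lane 4, 0.22 in lane 5, -0.04 in lane 6 and 0.25 in lane 7, from 1 to 3 libraries per group and lane.

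Bst2 ranged from 10.1 over 10.9 to 12.6 CPM after anti-miR-99b and from 7.27 over 9.86 to 13.4 CPM in sc-control, so that the treated libraries lay within the range of the controls (log2FC 0.12, SE 0.09, edgeR adjusted p = 0.574). Helz2, at 2.42 over 2.98 to 3.69 CPM against 2.60 over 2.86 to 3.76 CPM, had a log2FC of 0.04 (SE 0.10, edgeR adjusted p = 0.917, 95% interval 0.894-fold to 1.18-fold). The depth for Helz2 was 57 to 111 reads per library here, beside 2585 or more in primary microglia.

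Gltp ranged from 18.1 to 21.99 CPM after anti-miR-99b and from 17.4 to 22.5 CPM in sc-control (log2FC 0.02, SE 0.05, edgeR adjusted p = 0.914). Micall1 ranged from 33.7 to 41.96 CPM and from 36.7 to 40.8 CPM, with 3 treated libraries below all controls and 1 above (log2FC -0.06, SE 0.04, edgeR adjusted p = 0.519). Impg2 ranged from 0.929 to 2.01 CPM and from 1.34 to 1.94 CPM (log2FC -0.18, SE 0.13, edgeR adjusted p = 0.595). Ptgir was counted with only 2 to 9 reads per library, was removed by the low-count filter and was not tested.

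Microglial markers moved in the same comparison. Their summed level was between 133 and 153 CPM after anti-miR-99b and between 109 and 138 CPM in sc-control, and 5 of 10 were called upward, while Itgam alone of the list had a log2FC below 0 (-0.24, edgeR adjusted p = 0.385). The called markers included Csf1r, the receptor that microglia need to survive (11.5 ± 0.347 against 9.15 ± 0.896 CPM, SD, n = 7 and 8, log2FC 0.34, edgeR adjusted p = 0.00101), C1qa, a complement subunit (log2FC 0.34, edgeR adjusted p = 0.00106), and Trem2, a lipid receptor (log2FC 0.70, edgeR adjusted p = 0.00113). Of 3 border macrophage markers tested, Ms4a7 alone was called (log2FC 0.50, edgeR adjusted p = 0.000393), while the median log2FC of the 3 was 0.035. Ms4a7 was also expressed in primary microglia, at 227 to 259 CPM in sc-control. Of 10 neuronal markers, 0 were called by edgeR or DESeq2, with 1 at an unadjusted p under 0.05. The part of these markers in the values of Xaf1 and Bst2 was not tested.

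Of the interferon list, 3 of 38 genes tested in the co-cultures were called upward and 38 of 38 had a log2FC above 0, with a median of 0.16 beside 0.003 over all genes. These counts too describe a list chosen with earlier results of these data known. The called genes were Ifi204, a DNA sensor (log2FC 1.19, edgeR adjusted p = 0.000529), Parp14, an ADP-ribosyltransferase (log2FC 0.39, edgeR adjusted p = 0.0113), and Rsad2, the antiviral enzyme viperin (log2FC 0.39, edgeR adjusted p = 0.0254). Of the further predicted targets, Slfn5 was called (log2FC 0.87, edgeR adjusted p = 0.00344), while Zbp1 had a log2FC of 0.19 (edgeR adjusted p = 0.757), Ifih1 of 0.24 (edgeR adjusted p = 0.0744) and Tap1 of 0.01 (edgeR adjusted p = 0.968). Among the pathways of the members, 2 of 13 tested genes of the PPAR list fell slightly. They were the coactivator gene Ncoa1, by 0.11 on the log2 scale (edgeR adjusted p = 0.0347), and Helz, by 0.14 (edgeR adjusted p = 0.0317). Helz is a helicase gene that was placed on this list beside the PPAR receptors and coregulators. By edgeR and DESeq2, 0 of 14 prostanoid genes, 0 of 18 glycolipid genes, 0 of 23 endocytic recycling genes and 0 of 15 genes of the XIAP and caspase axis were called, with 3, 2, 3 and 1 at an unadjusted p under 0.05 in edgeR.

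**Figure D5:**
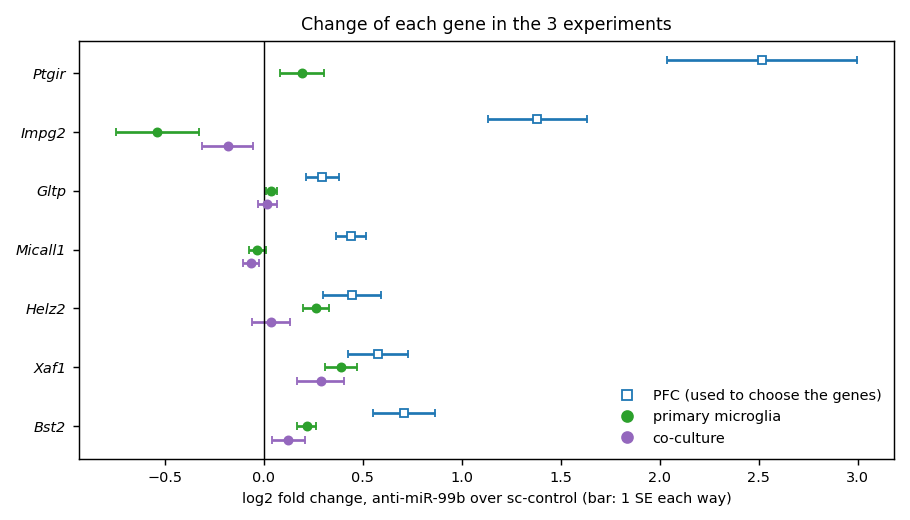
log2 fold change of anti-miR-99b over sc-control for the 7 genes in the PFC (open squares, the contrast that chose the genes), primary microglia and co-cultures, with a bar of 1 SE each way. Gltp, Helz2, Xaf1 and Bst2 lie above 0 in all 3 experiments, with Gltp and Helz2 within 1 SE of 0 in the co-cultures, Impg2 lies below 0 in both cultures, and Ptgir has no co-culture value.

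Whether a change differed between primary microglia and co-cultures was tested directly, in 1 fit over both. For 0 of the 6 genes tested in both experiments did the difference of log2FC pass an adjusted p under 0.05 in edgeR, beside 0.239% of 17579 genes. At an unadjusted p under 0.05 were 0 genes in edgeR and 0 in DESeq2. The difference, microglia minus co-culture, was 0.24 for Helz2 (95% interval -0.04 to 0.53, edgeR adjusted p = 0.751), 0.11 for Xaf1 (-0.20 to 0.42), 0.11 for Bst2 (-0.10 to 0.32) and -0.34 for Impg2 (-0.85 to 0.16). It was 0.03 for Gltp (-0.09 to 0.16) and 0.05 for Micall1 (-0.08 to 0.17), while that of Ptgir, 0.20, had a wide interval from -0.59 to 0.98 and is not counted here, since it passed the joint filter only through its counts in primary microglia. The call of Xaf1 and Bst2 in primary microglia alone is therefore not shown to be a difference between the experiments.

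Variation between libraries of the same group was also compared among genes, as a description. Deviations of log2(CPM + 0.5) from the group mean were correlated over all 29 libraries, which differ in lane and depth, with 11807 other genes of at least 1 CPM on average in each experiment. For Xaf1 the most similar genes were Parp12 (Pearson r = 0.80), Irf9 (0.79) and Rtp4 (0.79). For Bst2 they were Ifitm3 (0.81), Lgals9 (0.80) and Lgals3bp (0.80), and for Helz2 they were Itga6 (0.70), Mov10 (0.68) and Ddx58 (0.67). Irf9, Rtp4, Lgals9, Lgals3bp and Ddx58 belong to the interferon list.

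Micall1 varied most closely with Sbf1 (r = 0.89), Prrc2a (0.88) and Cic (0.87), and Gltp with Tgfb1 (0.78), Asap3 (0.77) and Ctsd (0.75). Within the primary microglia libraries alone, the correlation with Gltp was 0.54 for Tgfb1, -0.08 for Asap3 and 0.15 for Ctsd. For Impg2, counted with 20 to 84 reads per library, the highest values were 0.65 (Lyrm4), 0.61 (St8sia6) and 0.61 (Spp1), and in counts this sparse they carry little weight. Within the set, Xaf1 and Bst2 correlated at r = 0.60, Helz2 and Bst2 at 0.52 and Helz2 and Xaf1 at 0.47, while Micall1 correlated at -0.46 with Xaf1 and at -0.26 with Bst2. Impg2 correlated at 0.49 with Xaf1 and at 0.04 with Helz2. Ptgir was left out, since it was not tested in all 3 experiments.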

How the data were processed

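The authors made poly(A)-selected TruSeq libraries, sequenced single reads of 50 bases, and, per the labels, used bcl2fastq 2.20.2, FastQC 0.11.5, STAR 2.5.2b (mm10) and featureCounts 1.5.1. They deposited unnormalized read counts per Ensembl gene. The annotation release and strand setting are not given in the sources used here. All 29 columns were matched to samples by library name. Symbols, coordinates and exon lengths came from GENCODE M21 (48349 of 48709 identifiers named).

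Each experiment was fitted alone in R 4.3.3 with edgeR 4.0.16 (filterByExpr, TMM, quasi-likelihood test, Benjamini-Hochberg over all genes tested), leaving 17364 genes in the PFC, 14953 in microglia and 16193 in co-cultures. CPM used the same factors. The SE was the log2FC divided by the square root of F, and intervals are at 95%. A call required an adjusted p under 0.1 and a log2FC beyond 0.1 in microglia, for which the study states no limits, an adjusted p under 0.05 and beyond 0.1 in co-cultures, and under 0.1 and beyond 0.2 in the PFC (background only). Fits were tested on simulated data. Library pairs of a group differed by at least 1.48 times sampling noise (chi-square per degree of freedom), so all were kept.

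Named genes were the 7, the 4 further predicted targets, up to 3 called genes of each list by p, and the 3 most correlated genes of each member. 1700088E04Rik was named for its overlap, and genes and lists were chosen with earlier results of these data known. Replicate numbers and lanes came from library names. Alternatives were DESeq2 1.42.0, RLE factors, other filters and thresholds, a RUVs factor, lane and replicate blocks, and, for the PFC, primary microglia and their controls, libraries left out in turn. Some results are not reported here.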

Additional observations from a re-analysis of the deposited data

Results flagged for a closer look

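Of 28 combinations of gene and culture group checked for a library far from the others, 2 stood out, both for Bst2, where chance alone flags about 1 in 20 groups. In primary microglia, sc-control replicate 2 stood at 118 CPM while the other 3 controls lay between 99.1 and 101 CPM. In the co-cultures, anti-miR-99b replicate 10 stood at 12.6 CPM while the other 6 treated libraries lay between 10.1 and 11.2 CPM.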

How the results depend on the processing

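Counts of genes called in primary microglia moved most. Beside 2 of the 7 predicted targets and 27 of 40 interferon-stimulated genes, DESeq2 called 1 and 6. With 1 library left out, from 0 to 3 of the 7 and from 0 to 36 interferon-stimulated genes were called. In the co-cultures, where no library was left out, 0 of the 6 genes tested passed under each alternative run, and the 3 interferon-stimulated genes became 5 with no filter, 5 with an adjusted p under 0.1 and no limit on the log2FC, and 6 with a RUVs factor. Helz2 passed in primary microglia with no filter (log2FC 0.27, edgeR adjusted p = 2.87e-13) and with a RUVs factor (log2FC 0.27, edgeR adjusted p = 0.0284), and its adjusted p over all alternatives other than left-out libraries ran from 2.87e-13 to 0.9996. With no filter, 27742 genes were tested, and the edgeR adjusted p of Xaf1 (2.08e-10) and Bst2 (1.43e-08) fell as well. Their log2FC and that of Helz2 hardly changed, so these low p-values depend on the filter and are not read as stronger evidence. In the PFC the log2FC of Ptgir ran from 2.12 to 3.54 and that of Impg2 from 1.21 to 1.77 with 1 library left out, highest without sc-control replicate 4. The causes of these shifts were not tested.

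Same-numbered libraries correlated between -0.28 and 0.05 in their deviations from group means, so the numbers were not taken to pair libraries, and the replicate block, fitted to libraries with a counterpart of equal number, is given here alone. It called 2 of the 7 predicted targets, 2 of the 4 further targets and 24 interferon-stimulated genes in primary microglia, and, in the co-cultures, 0 of the 6 tested and 2 interferon-stimulated genes. Under the block the co-culture log2FC of Micall1 turned from -0.06 to 0.0037 (edgeR adjusted p = 0.991), and the PFC log2FC was 3.62 for Ptgir, 1.74 for Impg2 and 0.85 for Xaf1. In primary microglia the log2FC fell to 0.08 for Helz2 (edgeR adjusted p = 0.525) and to 0.25 for Xaf1 (edgeR adjusted p = 0.0765). No other of the 7 genes changed its call or direction under the block.

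Depth limits Ptgir in the co-cultures, with 2 to 9 reads per library (log2FC 0.01 with no filter, edgeR adjusted p = 0.992), and Impg2 in all experiments.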
